A study of Sus scrofa with 11 samples.

Results

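The genes of leptin and growth hormone signalling were examined in the M. semimembranosus (SM), a ham muscle, of Duroc gilts on a low protein (LP) or a high protein (HP) diet. The 10 genes asked for were the hormone leptin (LEP), the receptors LEPR, GHR and PRLR, the feedback inhibitors SOCS1, SOCS2, SOCS3 and CISH, and the transcription factors STAT3 and STAT5B. A probe set, which is a group of short array probes that together give 1 expression level, was taken as a member where the platform annotation gives it 1 of these symbols alone. This gave 12 of the 23999 probe sets tested, for 8 of the 6765 genes that the annotation names singly. SOCS2 and CISH have no probe set under their symbol alone in this annotation and were dropped. The LEP probe sets are called S2 and S3 here after the ends of their identifiers, and those of SOCS1 and STAT5B are numbered in the order of their identifiers. The group was put together with the diet values of LEP, and of a probe set that the study names SOCS3, already known, so these were chosen on their measured values. They are therefore described without a test and support nothing by themselves.

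Each of the 11 pigs has its own Affymetrix Porcine Genome array, 6 after a diet with 217 g/kg crude protein and 13.0 g/kg lysine (HP) and 5 after one with 128 g/kg and 7 g/kg (LP). All were purebred females, about 10 weeks old when the diets began, and slaughtered after 63 days on diets of equal energy. The gilts were blocked on initial weight and penned in 2 groups, and no source used here ties a pig to its block, pen or day of slaughter. None of these could be fitted here, so an effect of pen or day of slaughter was not separated from diet. The study's own model of carcass and composition traits held slaughter date beside diet. For initial weight the study reports no significant difference between the diets. Levels are the authors' values on a log2 scale, on which a difference of 1 is a doubling, and every array has a median of 6.72.

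Leptin is a hormone of fat cells that reports the size of the fat stores, and it acts through LEPR, a receptor of the cytokine family. GHR and PRLR, the receptors of growth hormone and prolactin, belong to the same family. None of these receptors is a kinase itself, so each relies on a bound Janus kinase (JAK), which phosphorylates STAT proteins. STAT3 is the main STAT of leptin and STAT5B the main STAT of growth hormone, the hormone that drives IGF1 production. CISH and the SOCS proteins are made in answer to active STATs and switch the receptor complex off again.

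An array was counted as having signal for a probe set where the level lay above the highest of its 23 negative control probe sets, which read sequences absent from the sample. That level ranged from 1.96 to 3.58 between arrays, and 74.9% to 85.3% of all probe sets lay above it. Of the 12 member probe sets, 7 lay above it on all 11 arrays, 1 on 9 arrays and 4 on none. LEP, GHR, SOCS1, STAT3 and STAT5B were measurable in SM muscle, whereas LEPR, PRLR and SOCS3 were not on the probe sets that carry their symbols. The probe set without a symbol that the study names SOCS3 is described below. All 9 measured markers of skeletal muscle lay above the controls on every array, among them CKM, the creatine kinase of muscle, and TTN, titin. The mean of the hybridisation spike-ins, foreign transcripts added to each array, differed between LP and HP by -0.27 (exact permutation p = 0.201). For actin, the gap between the probe sets at its 3′ and 5′ ends is a sign of RNA integrity. It was wide on every array, at 5.12 to 6.46 on the log2 scale, with the 3′ end brighter. In LP it was lower, with a log2 difference of -0.43 (p = 0.123 by exact permutation). What this gap means for probe sets away from the 3′ end was not tested.

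**Figure D1:**
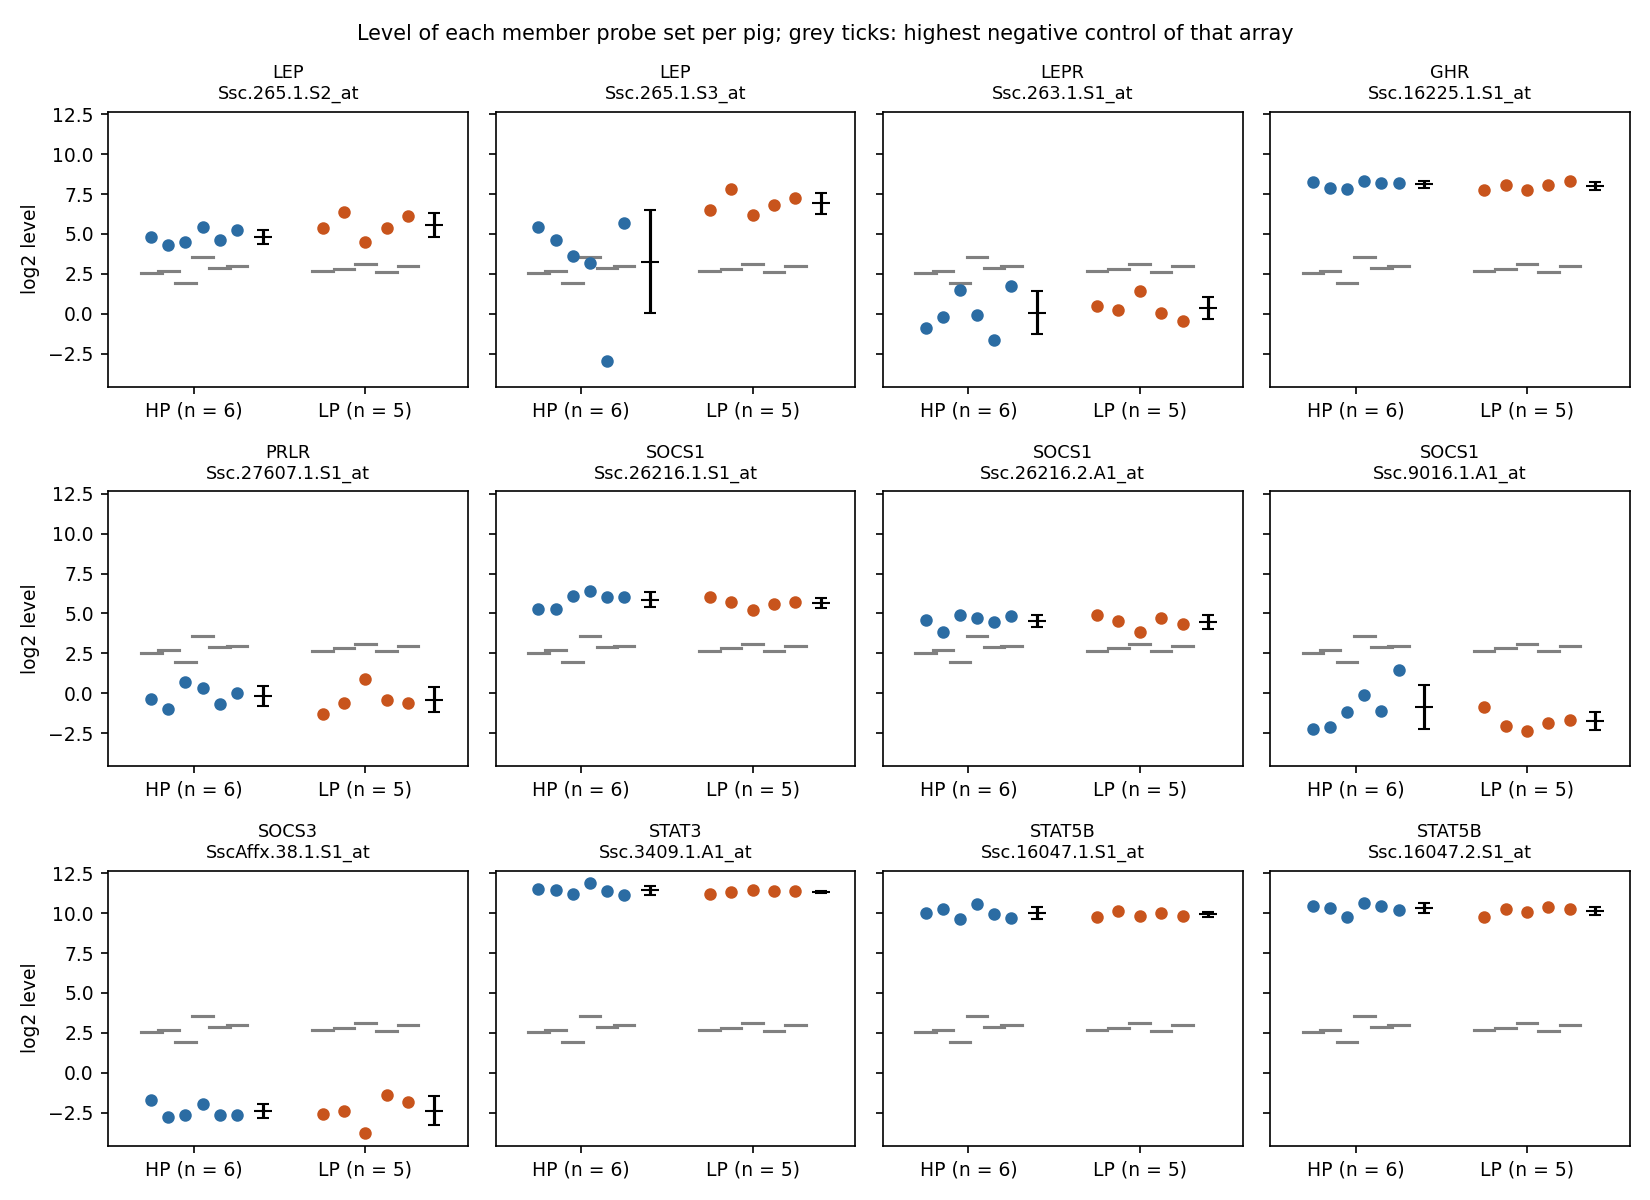
Level on the log2 scale of each of the 12 member probe sets in the 6 HP pigs (blue) and 5 LP pigs (orange), in replicate order from left to right. Black bars are the mean ± SD and grey ticks the highest negative control of the same array. LEP probe set S3 is the member whose diets do not overlap, and LEPR, PRLR, SOCS3 and 1 SOCS1 probe set stay below the ticks on all arrays.

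LEP was higher in LP muscle on probe set S3. In the HP pigs its levels were 5.45, 4.60, 3.62, 3.20, -2.95 and 5.71, and in the LP pigs 6.48, 7.83, 6.20, 6.81 and 7.24, in replicate order. All LP pigs lay above all HP pigs, with a gap of 0.50 between the lowest LP and the highest HP pig. Signal was above the negative controls in 5 of 5 LP pigs and in 4 of 6 HP pigs. HP replicates 4 and 5 were below them, and HP replicate 5 was far lower than the rest. LP averaged 6.91 ± 0.64 (SD, n = 5) against 3.27 ± 3.20 (SD, n = 6) for HP, a log2 difference of 3.64 with a standard error of 1.34 in limma.

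The size of this difference rested on HP replicate 5, and the direction did not. As deposited it was 12.5-fold, and without HP replicate 5 it was 5.27-fold (log2 difference 2.40, standard error 0.52). With every value below the negative controls raised to the level of the highest control of its array, it was 6.09-fold (log2 difference 2.61), a lower bound because 2 HP values stand at that floor. A probe set whose diets do not overlap with LP on top is uncommon on these arrays, at 0.25% of all tested and 0.579% in either direction, but LEP was among the genes chosen with this contrast known and nothing is read from that share. Of the 9 member probe sets other than those of LEP and SOCS3, 0 passed the threshold, an unadjusted p of 0.05. This held in limma and in the exact permutation test, whereas the study put 0.05 on P-like values from puma, a different measure. Over all probe sets tested 5.11% passed in limma (2.15% higher and 2.97% lower in LP) and 5.4% by the exact permutation test, so a count of 0 in 9 lies close to the background.

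The other LEP probe set, S2, gave a smaller difference with overlapping diets. Its levels were 4.79, 4.28, 4.49, 5.43, 4.65 and 5.22 in HP and 5.38, 6.38, 4.47, 5.38 and 6.13 in LP. LP replicates 2 and 5 were the highest pigs of all, and LP replicate 3 lay among the lower HP pigs. LP averaged 5.55 ± 0.75 (SD, n = 5) against 4.81 ± 0.44 (SD, n = 6) for HP, a 1.67-fold difference (log2 difference 0.74, standard error 0.34 in limma). All 11 arrays were above the negative controls, including HP replicate 5 at 4.65, the pig in which the other probe set was at -2.95. The array also carries leptin among its manufacturer's controls, as probe sets for the 5′ and middle part of the transcript. They were above the negative controls on 0 and 1 of the 11 arrays, and so could not be used to compare the diets.

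With the diet means removed, the correlation of the 2 probe sets over the 11 pigs was Pearson r = 0.22 (permutation p = 0.462, adjusted p = 0.578) and Spearman rho = 0.29 (permutation p = 0.342, adjusted p = 0.434). Without the 2 pigs farthest from the median, LP replicates 2 and 3, r was 0.17. Pigs were permuted within their diet, and the adjusted p covers 15 relations computed in the same way. In the 6 HP pigs alone r was 0.15, which includes HP replicates 4 and 5, below the negative controls on S3. The 5 LP pigs are too few for a correlation, but they stood in nearly the same order on both probe sets. LP replicates 2 and 5 were highest and LP replicate 3 lowest. Whether the diets differ in this relation was not tested.

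**Figure D2:**
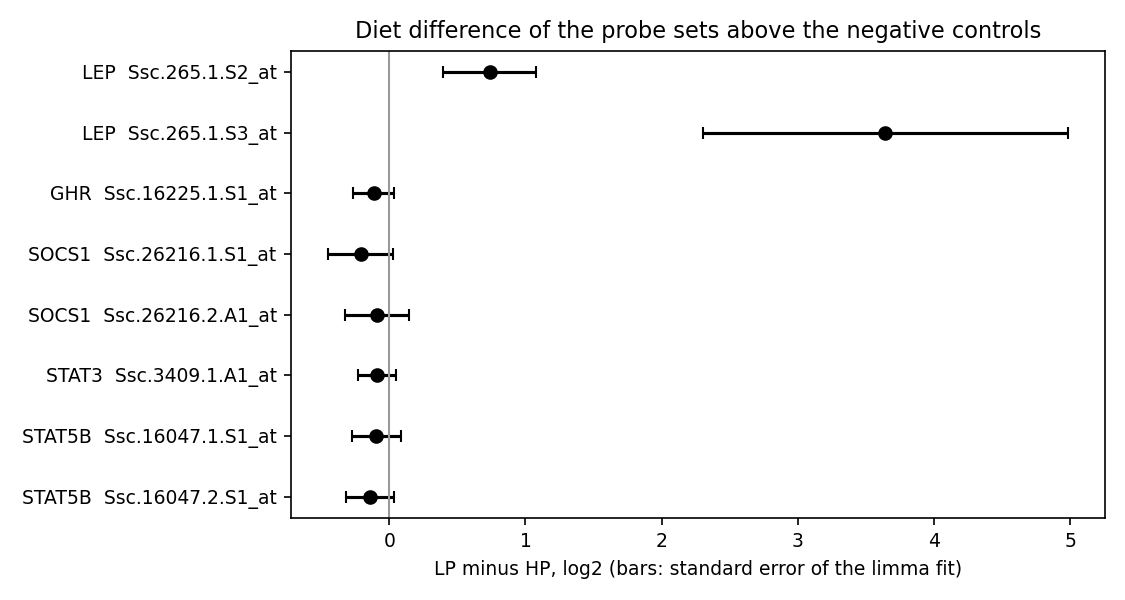
LP minus HP difference on the log2 scale of the 8 member probe sets with signal above the negative controls, with the standard error of the limma fit as bars. Both LEP probe sets lie above 0, at 3.64 and 0.74, and the other 6 lie between -0.21 and -0.09.

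LEP is made by fat cells, and no measured marker of fat cells passed the test between the diets. The study itself reports a higher intramuscular fat content of this muscle on the LP diet. Fat values of single pigs were not used here. Of 13 adipocyte markers 10 were measured, each read by its brightest probe set, and none passed the threshold in limma or in the exact permutation test in either direction, against 4.73% of 6765 genes read in the same way in limma (1.57% higher and 3.16% lower). Their median log2 difference was -0.01, beside -0.04 over all genes. ADIPOQ, which encodes adiponectin, a further hormone of fat cells, differed by 0.22 (95% interval -0.68 to 1.11, limma p = 0.606, exact permutation p = 0.628). FABP4, the fatty acid carrier of fat cells, differed by -0.11 (95% interval -0.55 to 0.33, limma p = 0.603, exact permutation p = 0.604). The differences were -0.16 for LIPE, the hormone-sensitive lipase, and -0.08 for CFD, which encodes adipsin, and neither passed. The intervals of ADIPOQ and FABP4 reach to both sides of 0, so an equal fat cell content of the diets is not shown. Whether these transcripts came from fat cells alone was not tested. PLIN1, PLIN4 and CIDEC, coat proteins of the lipid droplet, were not measured under a single symbol. In a piece of muscle, more fat cells and more LEP transcript per fat cell cannot be told apart.

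The 8 adipocyte markers above the controls on all arrays had a mean level of 7.49 to 8.39 in HP and 7.80 to 8.18 in LP. The LP range lay inside the HP range, and the diet means differed by 0.01 (exact permutation p = 0.957). HP replicate 5, far below the negative controls on LEP probe set S3, had the lowest mean of the 11 pigs, and HP replicate 1 the highest. HP replicate 4, also below the controls on that probe set, had a marker mean of 8.01, above the HP average of 7.93. With the diet means removed, the marker mean and LEP probe set S3 had a Pearson r of 0.74 (permutation p = 0.0448, adjusted p = 0.0960) and a Spearman rho of 0.62 (permutation p = 0.0460, adjusted p = 0.0986). Without HP replicates 1 and 5, the 2 pigs farthest from the median marker level, r fell to 0.34, so this relation rests on those pigs. In HP alone r was 0.76. For LEP probe set S2 r was 0.47 (permutation p = 0.0954, adjusted p = 0.179) and rho 0.65 (permutation p = 0.0379, adjusted p = 0.0948). Without the same 2 pigs r was 0.80, and in HP alone it was 0.43. Neither relation passed after adjustment, and the part of fat cell content in the LEP difference was not tested.

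**Figure D3:**
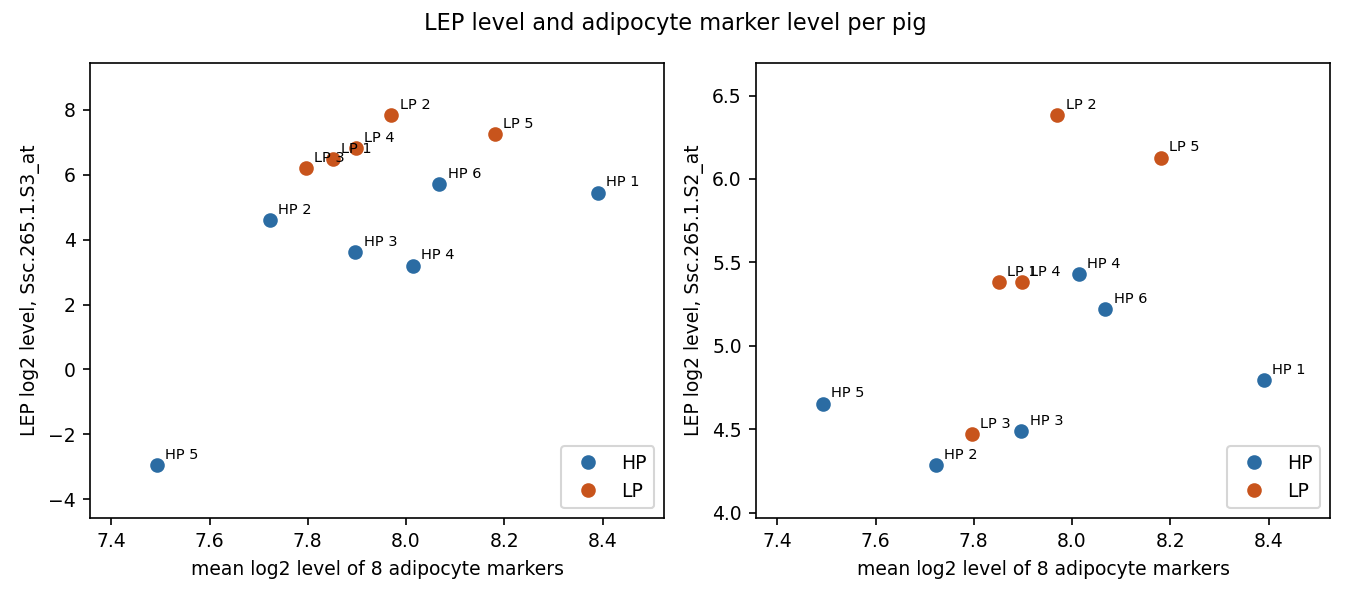
Level of LEP on its 2 probe sets (y axes, log2) against the mean log2 level of 8 adipocyte markers (x axes) in each pig, HP in blue and LP in orange. The LP pigs lie above the HP pigs in the left panel. Their marker means, 7.80 to 8.18, lie within the HP range of 7.49 to 8.39, and HP 5 is lowest on the marker axis.

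The leptin receptor LEPR could not be compared. Its levels ran from -1.64 to 1.77 in HP and from -0.42 to 1.42 in LP, below the highest negative control on all 11 arrays. PRLR, the prolactin receptor, was in the same position, at -0.99 to 0.69 in HP and -1.26 to 0.93 in LP. No fold is given for either, and a level below the controls does not show that the transcript is absent.

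GHR, the growth hormone receptor, was measured on all arrays and its diets overlapped. Its levels were 8.28, 7.88, 7.80, 8.34, 8.21 and 8.17 in HP and 7.75, 8.09, 7.78, 8.05 and 8.33 in LP. The diets covered nearly the same range. LP averaged 8.0 ± 0.24 (SD, n = 5) against 8.11 ± 0.22 (SD, n = 6) for HP, and the log2 difference of -0.11 had a 95% interval of -0.45 to 0.22 (limma p = 0.467, adjusted p = 0.968, exact permutation p = 0.429). IGF1, the growth factor whose transcription follows growth hormone in many tissues, differed by -0.02 (95% interval -0.43 to 0.38, limma p = 0.901, exact permutation p = 0.898). From pig to pig within the diets GHR and IGF1 had a Pearson r of -0.08 (permutation p = 0.817, adjusted p = 0.943) and a Spearman rho of -0.04 (permutation p = 0.929, adjusted p = 0.991). Without HP replicate 3 and LP replicate 1 r was 0.22, and in HP alone it was -0.32.

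SOCS1, an inhibitor that binds JAK kinases directly, was read by 3 probe sets. On the first, which is also the brightest, levels were 5.28, 5.26, 6.11, 6.42, 6.06 and 6.04 in HP and 6.03, 5.72, 5.21, 5.59 and 5.70 in LP. HP split into 2 low pigs and 4 high ones, and the LP pigs lay across the same range. The log2 difference was -0.21 (95% interval -0.74 to 0.32, limma p = 0.402, adjusted p = 0.968, exact permutation p = 0.422). The second ranged from 3.85 to 4.89 in HP and from 3.84 to 4.91 in LP and differed by -0.09 (95% interval -0.60 to 0.42, limma p = 0.705, adjusted p = 0.985, exact permutation p = 0.690). Without LP replicate 3, its lowest pig, that difference was 0.07, so it has no stable sign. These 2 probe sets followed each other from pig to pig, with Pearson r = 0.72 (permutation p = 0.0132, adjusted p = 0.0368) and Spearman rho = 0.69 (permutation p = 0.0273, adjusted p = 0.0820) after the diet means were removed. Without HP replicates 1 and 2 r was again 0.72, and it was 0.68 in HP alone. The third stayed below the negative controls on all arrays.

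SOCS3, the feedback inhibitor of the leptin and interleukin-6 receptors, was below the negative controls on all 11 arrays on the probe set that carries its symbol. Its levels ran from -2.78 to -1.67 in HP and from -3.77 to -1.36 in LP, so no fold is given. A further probe set has no symbol in the platform annotation, and the study names it SOCS3. It is no member by the rule. Its levels were -0.33, -0.48, -0.57, -0.32, 3.09 and -0.49 in HP and 5.31, 4.20, 3.94, 2.77 and 3.01 in LP. It was above the negative controls in 5 of 5 LP pigs and in 1 of 6 HP pigs, HP replicate 5, which lay within the LP range. With values below the controls raised to them, LP lay above HP by 1.04, or 2.05-fold, a lower bound because 5 of 6 HP values stand at that floor. Measured against the mean plus 2 SD of the negative controls, 4 LP pigs and 0 HP pigs had signal. The 2 probe sets given as SOCS3 thus did not show the same pattern, and whether both read the same transcript could not be checked here.

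STAT3 was measured on all arrays, at 11.52, 11.43, 11.22, 11.88, 11.39 and 11.13 in HP and 11.22, 11.30, 11.42, 11.36 and 11.38 in LP. HP replicate 4 was the highest pig, and the LP pigs lay close together inside the HP range. The log2 difference was -0.09 (95% interval -0.40 to 0.22, limma p = 0.524, adjusted p = 0.971, exact permutation p = 0.541). STAT5B was read by 2 probe sets with the same picture. The first ranged from 9.61 to 10.58 in HP and from 9.79 to 10.13 in LP, a difference of -0.10 (95% interval -0.49 to 0.30, limma p = 0.603, adjusted p = 0.977, exact permutation p = 0.615). The second ranged from 9.72 to 10.62 in HP and from 9.77 to 10.38 in LP, a difference of -0.14 (95% interval -0.53 to 0.25, limma p = 0.439, adjusted p = 0.968, exact permutation p = 0.413). HP replicate 4 was the highest pig and HP replicate 3 the lowest on both STAT5B probe sets. Within the diets these 2 probe sets had a Pearson r of 0.75 (permutation p = 0.0147, adjusted p = 0.0368) and a Spearman rho of 0.74 (permutation p = 0.0252, adjusted p = 0.0820), with r at 0.54 without HP replicates 3 and 4 and 0.81 in HP alone.

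Over the 11 pigs the levels of STAT3 and STAT5B rose with the spike-in level of their arrays, although every array has the same median. With the diet means removed, the spike-in mean had a Pearson r of 0.82 with STAT3 (permutation p = 0.00820, adjusted p = 0.0368) and a Spearman rho of 0.81 (permutation p = 0.0133, adjusted p = 0.0665). For STAT5B r was 0.86 on the first probe set (permutation p = 0.00736, adjusted p = 0.0368) and 0.80 on the second (permutation p = 0.00135, adjusted p = 0.0202), with rho of 0.85 (permutation p = 0.00593, adjusted p = 0.0665) and 0.79 (permutation p = 0.0108, adjusted p = 0.0665). By Spearman rho none of these relations passed after adjustment. Without HP replicates 3 and 6, whose spike-in levels were farthest from the median, r came to 0.63, 0.65 and 0.57. In HP alone it was 0.84, 0.93 and 0.86. Among the 5 LP pigs the first STAT5B probe set did not follow this order, since LP replicate 2 had its highest level, 10.13, and the second lowest spike-in level, 11.76. With the spike-in level as a covariate, chosen after the values were seen, the diet differences were 0.05 for STAT3 and 0.11 and 0.05 for STAT5B, so their negative sign did not hold. STAT3 and STAT5B also followed each other, at r = 0.84 (permutation p = 0.0119, adjusted p = 0.0368) and rho = 0.66 (permutation p = 0.0651, adjusted p = 0.122), and r was 0.53 without HP replicates 4 and 6 and 0.93 in HP alone. The LP pigs did not show it: LP replicate 3, the highest in STAT3 at 11.42, was the second lowest on the first STAT5B probe set at 9.82, and LP replicate 2, the highest there at 10.13, was the second lowest in STAT3 at 11.30. Whether the relation between STAT3 and STAT5B depends on the spike-in level was not tested.

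The other detected members did not follow the spike-ins in this way. GHR had r = 0.39 (permutation p = 0.244, adjusted p = 0.366) and rho = 0.52 (permutation p = 0.126, adjusted p = 0.189) with them. The LEP probe sets had r = -0.07 on LEP probe set S3 (permutation p = 0.912, adjusted p = 0.968) and r = 0.01 on LEP probe set S2 (permutation p = 0.968, adjusted p = 0.968), with rho of -0.01 (permutation p = 0.991, adjusted p = 0.991) and 0.10 (permutation p = 0.766, adjusted p = 0.883). For SOCS1 r was -0.34 (permutation p = 0.424, adjusted p = 0.578) and -0.45 (permutation p = 0.167, adjusted p = 0.279), and rho was -0.36 (permutation p = 0.347, adjusted p = 0.434) and -0.55 (permutation p = 0.0905, adjusted p = 0.151). Without HP replicates 3 and 6 r was 0.18 for GHR, 0.55 and 0.06 for the LEP probe sets and -0.14 and -0.11 for SOCS1. The 0.55 of LEP probe set S3 lay close to the 0.57 of the second STAT5B probe set. The contrast between LEP probe set S3 and the STAT genes thus rests on HP replicates 3 and 6. With the spike-in covariate the LEP difference was 3.50 on LEP probe set S3 and 0.74 on LEP probe set S2.

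**Figure D4:**
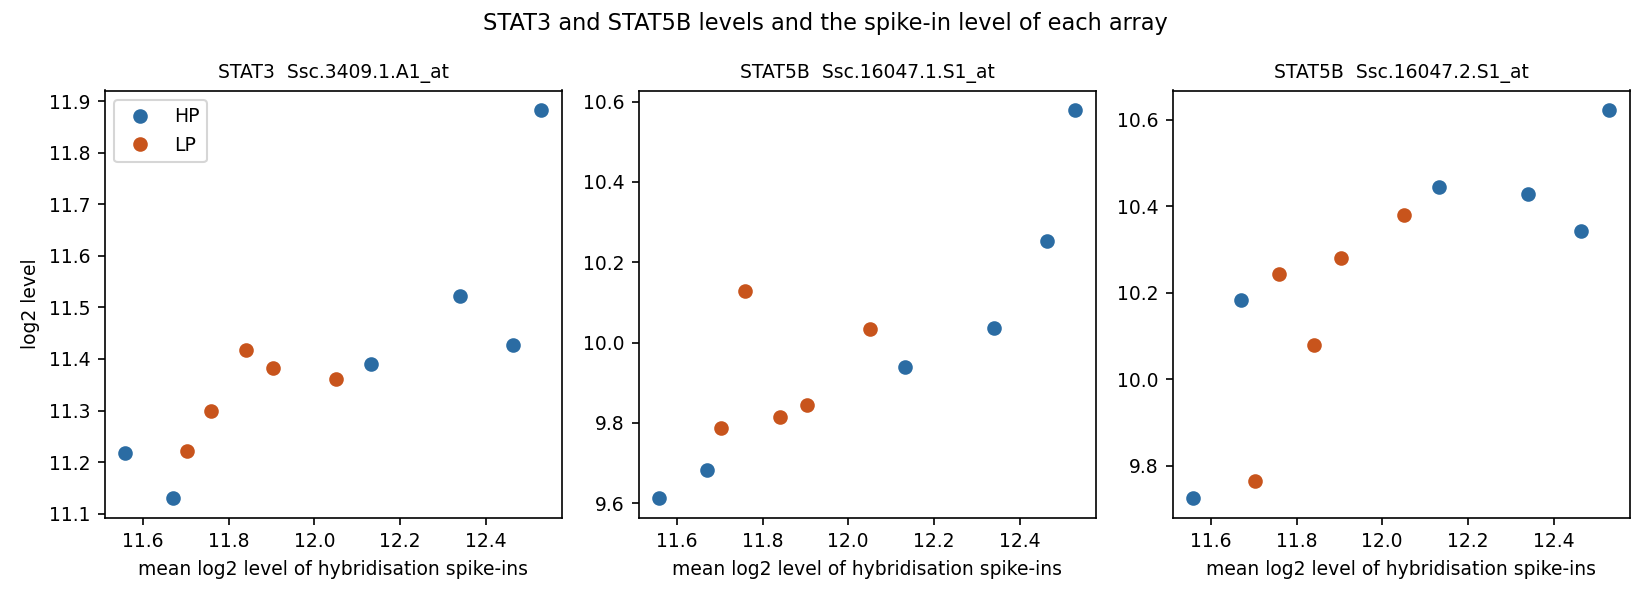
Level of STAT3 and of both STAT5B probe sets (y axes, log2) against the mean log2 level of the hybridisation spike-ins of the same array (x axes), HP in blue and LP in orange. Arrays with brighter spike-ins have higher STAT levels, with r = 0.82, 0.86 and 0.80 after the diet means are removed.

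The rest of the JAK-STAT pathway gave no call at its brightest probe sets. Of a list of 34 further genes 19 were measured, and 0 were higher and 0 lower at an unadjusted p of 0.05, in limma as in the exact permutation test. Since 4.73% of all genes read this way passed in limma, a count of 0 in 19 lies close to the background. Their median log2 difference was -0.01, and 10 of 19 lay below 0, beside 57.5% of all genes. Among those with signal on at least 3 arrays, the genes with the smallest p were IRS1, an adaptor of insulin and growth hormone signalling, at 0.30 (limma p = 0.144, exact permutation p = 0.147), and PTPN6, a phosphatase of blood cells that shuts off cytokine receptors, at -0.43 (limma p = 0.166, exact permutation p = 0.195). They were followed by PTPN2, a phosphatase of JAK and STAT proteins, at 0.17 (limma p = 0.202, exact permutation p = 0.132), and SH2B1, an adaptor that enhances leptin signalling through JAK2, at -0.14 (limma p = 0.285, exact permutation p = 0.249). JAK2, the kinase bound to both LEPR and GHR, differed by 0.30 (95% interval -0.37 to 0.98, exact permutation p = 0.372), and was chosen after its values were seen.

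Among the 16 dimmer probe sets of these genes 2 passed the threshold in limma, beside 5.11% of all probe sets tested. They read the phosphatases PTPN2 and PTPN1, and both were chosen after their values were seen. On its dimmer probe set PTPN2 was at 4.32, 4.84, 4.69, 4.91, 4.44 and 4.64 in HP and at 5.27, 5.57, 5.01, 5.23 and 5.67 in LP. All LP pigs lay above all HP pigs, as they did on 0.25% of all probe sets tested. The log2 difference of PTPN2 was 0.71 ± 0.16 (SE, limma p = 0.000986, adjusted p = 0.701, exact permutation p = 0.00216). Its brighter probe set, at 0.17, did not pass. On 1 of its dimmer probe sets PTPN1, the phosphatase of JAK2 and of the insulin receptor, was at 2.91 to 4.24 in HP and 1.67 to 3.21 in LP, with 6 of 6 HP and 3 of 5 LP pigs above the negative controls. Its log2 difference was -0.98 ± 0.32 (SE, limma p = 0.0108, adjusted p = 0.916, exact permutation p = 0.0152), which includes the 2 LP values below the controls. The other PTPN1 probe sets lay on the other side of 0, at 0.51 for a dimmer one with signal on 6 arrays (limma p = 0.337, exact permutation p = 0.411) and at 0.11 for the brightest. After Benjamini-Hochberg adjustment in limma 0 of the 23999 probe sets were under 0.05, against 1227 at an unadjusted p of 0.05 and 1297 by the exact permutation test.

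Genes that STAT3 and STAT5 are known to induce gave no call at their brightest probe sets. Of 17 listed 10 were measured, and 0 were higher and 0 lower at an unadjusted p of 0.05 in limma, as in the exact permutation test, again close to the background of 4.73% in limma. Of 9 dimmer probe sets 1 passed in limma, a CEBPD probe set with signal on 0 arrays, beside 5.11% of all probe sets tested. The median log2 difference was -0.08, beside -0.04 over all genes. CEBPD, an acute phase transcription factor, differed by -0.60 (95% interval -1.45 to 0.25, limma p = 0.149, exact permutation p = 0.180), and MYC, a growth regulator, by 0.24 (limma p = 0.151, exact permutation p = 0.126). VEGFA, which drives vessel growth, was at a difference of -0.17 (limma p = 0.238, exact permutation p = 0.193), and ICAM1, an adhesion molecule, by 0.20 (limma p = 0.308, exact permutation p = 0.329). Other listed targets such as PIM1, BCL6 and JUNB were not measured under a single symbol.

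**Figure D5:**
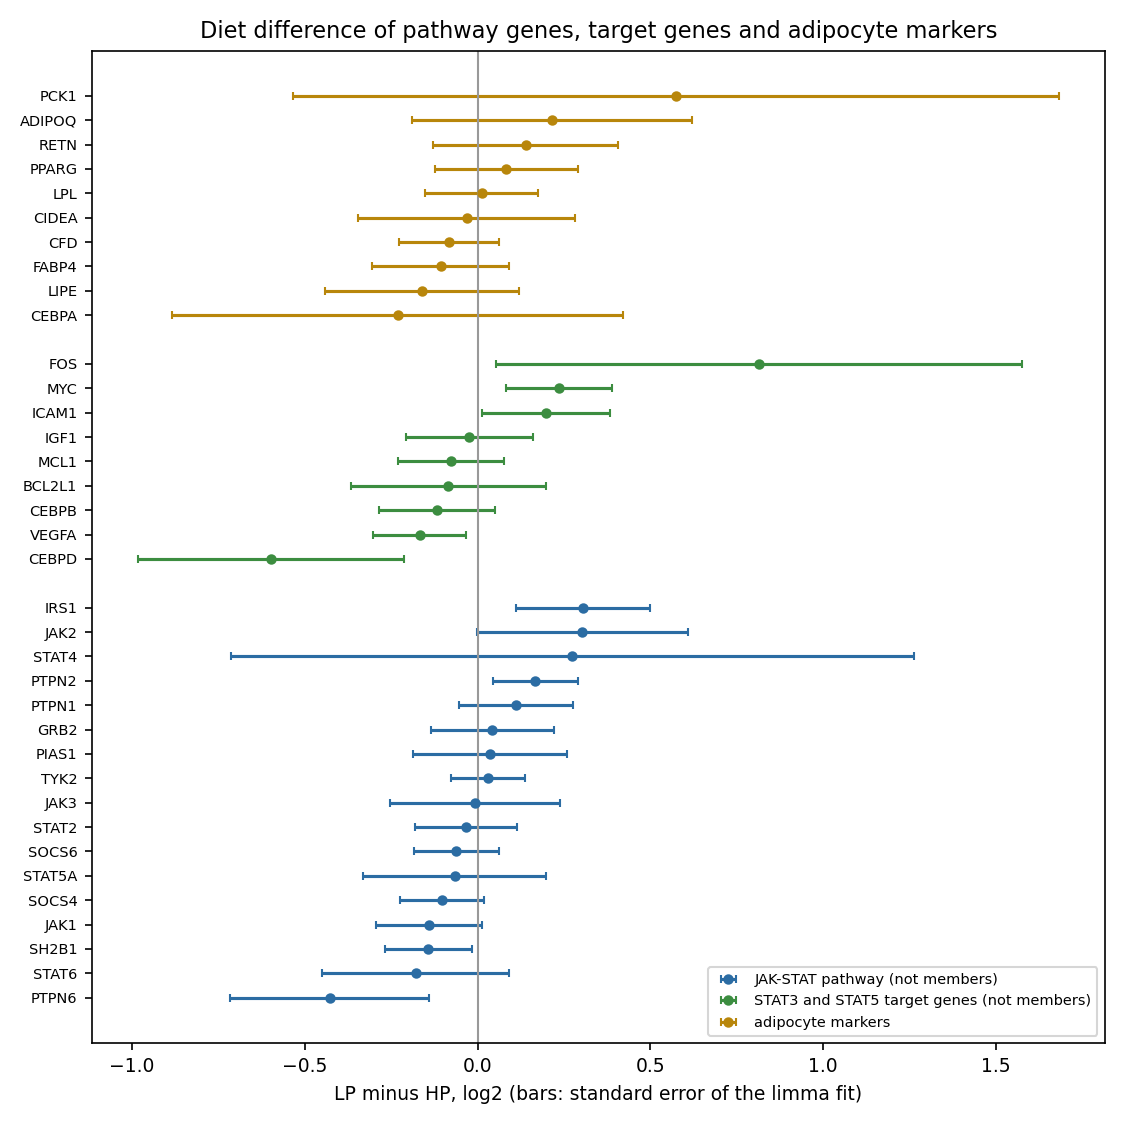
LP minus HP difference on the log2 scale, with the standard error of the limma fit as bars, of the genes on the JAK-STAT list (blue), the STAT target list (green) and the adipocyte marker list (yellow) with signal on at least 3 arrays. Each gene is read by its brightest probe set, the medians of the measured genes are -0.01, -0.08 and -0.01, and none passed an unadjusted p of 0.05.

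The genes whose level from pig to pig was most like that of a member were sought in 7863 singly named probe sets that had signal on all 11 arrays, by Pearson r over the 11 pigs after the diet means were removed. For LEP probe set S2, the brighter one, they were CHD4 (r = 0.89), MCM2 (0.85), REC114 (0.82), IFNAR1 (0.80) and PIGL (0.79). GHR was most like NR3C1, the glucocorticoid receptor (r = 0.95), and then EGF (0.93), CTSV (0.92), TRPV6 (0.90) and FAM8A1 (0.90). STAT3 was most like UBXN6 (r = 0.97), TMEM86A (0.96), PYGM, the glycogen phosphorylase of muscle (0.95), ATF4 (0.95) and C7H6orf125 (0.95), and as given above it also followed the array spike-ins. The SOCS3 probe set, which has no signal above the controls, still found partners at r of 0.87 to 0.93 (TMEM251, ALG2, KATNA1, RNF13 and ZDHHC3). That range gives the scale on which likeness over 11 pigs has to be read here. The r of the LEP partners lies within or below it, and that of the GHR partners CTSV, TRPV6 and FAM8A1 within it. NR3C1, EGF and the STAT3 partners lie at its upper end or above.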

How the data were processed

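SM muscle RNA of 11 gilts was hybridised to Affymetrix Porcine Genome arrays, 1 per pig, after amplification from total RNA. Each value deposited by the authors is a probe set's expression level on a log2 scale, made with R 2.6 and Bioconductor 2.1. The methods name puma for fold changes, and the sources used here do not give the background and normalisation steps behind the levels. Values were used as deposited, and diets were taken from the sample titles.

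Of 24123 probe sets, 124 controls were left out. For the other 23999, limma 3.58.1 under R 4.3.3 fitted LP minus HP (two-sided, moderated by empirical Bayes), because puma needs probe-level data, and p values were adjusted over all of them by Benjamini-Hochberg. Calls were made at p of 0.05 without adjustment. The study put the same number on P-like values from puma, so its calls and those made here are not on the same measure. The fit was tested on simulated data. Single differences were also tested by a two-sided exact permutation test, which runs over 462 splits and whose smallest possible p is 0.00216. Correlations used 1e+05 permutations within diets. The number of arrays limits the precision. The platform annotation gives 1 symbol for 10069 probe sets, several for 198 and none for 13732.

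Each list gene was read by its brightest probe set with a single symbol. Named are all member probe sets, the 4 genes of smallest p per list with signal on at least 3 arrays, and the 5 closest patterns for LEP, SOCS3, GHR and STAT3. The members and lists were chosen with earlier results of these data known. Alternatives were quantile normalization, raising low values to the controls, a filter on dim probe sets, a trended robust prior, a block for the replicate number, each array left out in turn, the exact test and another background level. A spike-in covariate and leaving out HP replicates 1, 2 and 4 together were added after the values were seen. No sequences or coordinates are shown, since no sequence table or build was used here.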

Additional observations from a re-analysis of the deposited data

Results flagged for a closer look

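In HP, replicate 5 lay far from the other 5 pigs on LEP probe set S3, at -2.95 with the nearest pig at 3.20. The same pig stood apart on the probe set without a symbol that the study names SOCS3, at 3.09 with the nearest HP pig at -0.32. These were the 2 single pigs found among 26 groups examined for a gap past Dixon's critical value, which chance alone exceeds in about 5% of groups. HP replicate 5 was thus lowest of the HP pigs on the first probe set and highest on the second.

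That probe set lies outside the members and had signal in LP with a log2 difference of 3.70 as deposited. Since 5 of 6 HP pigs were below the negative controls, this size depends on background values.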

How the results depend on the processing

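Over the alternatives, the LEP difference on LEP probe set S3 stayed positive, at 2.40 to 4.13 with 1 array left out, and so did that on LEP probe set S2, at 0.53 to 1.01. On S3 leaving out 1 array could not change the sign, since all LP pigs lay above all HP pigs. For the 6 other detected member probe sets, 106 of 114 alternative results kept their direction and none passed the threshold (lowest p = 0.0540, limma or exact permutation). Raising low values, the filter, the trended robust prior and the exact test could not change these differences, only their p. The replicate block gave the same differences as leaving out HP replicate 6, which has no LP partner. The count of 106 therefore overstates how far the direction was put to a test. The exceptions in sign were the second SOCS1 probe set without LP replicate 3 (0.066, range -0.23 to 0.066 with 1 array left out), and the first STAT5B probe set without HP replicate 4 (0.017, range -0.18 to 0.017). With the spike-in covariate STAT3 was at 0.047 and STAT5B at 0.11 and 0.046, and without HP replicates 1, 2 and 4 together they were at 0.090, 0.18 and 0.032. Both settings were chosen after the values were seen. The cause was not tested.

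The count of member probe sets past the threshold was 1, and 2 with low values raised to the controls, with dim probe sets left out and with the trended robust prior, where the second LEP probe set joined. It was 1 to 2 with 1 array left out, and 2 without HP replicates 1, 2 and 4 together, where a SOCS1 probe set without signal joined. Apart from that SOCS1 probe set these calls are LEP, which was chosen with this contrast known, so nothing is read from them. Over all probe sets the count was 1227, 1066 to 1521 with 1 array left out, and 1884 without HP replicates 1, 2 and 4. With 1 array left out the JAK-STAT list gave 0 to 2 calls, the STAT target list 0 to 1 and the leukocyte list 0 to 1, and without HP replicates 1, 2 and 4 the first and second lists gave 1 each (PTPN2 at 0.31 and FOS at 1.83). The JAK-STAT calls were EPOR, which has signal on 0 arrays, without HP replicate 3 and without either LP replicate 3 or 5, IRS1 without LP replicate 1, and PTPN6 without LP replicate 3. The target calls were ICAM1 without HP replicate 4 and CEBPD without LP replicate 1, and the leukocyte call was S100A8 without HP replicate 4.

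Same-numbered HP and LP arrays did not deviate together (r of -0.07 to 0.08), so no pairing by replicate number was seen. A weight block need not show in this measure. With the replicate block 1232 probe sets passed, 1 of them a member, and the LEP difference was 4.13 on LEP probe set S3. Under the mean plus 2 SD of the negative controls every member with signal kept its number of arrays. As a further limit, 4 of 12 member probe sets have no signal above background.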

Other observations

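No marker of leukocytes or vessels passed the test at its brightest probe set, beside 4.73% of all genes read this way in limma. Of 17 macrophage and other leukocyte markers 13 were measured, and 0 were higher and 0 lower at an unadjusted p of 0.05 in limma, as in the exact permutation test. The median log2 difference was 0.15, beside -0.04 over all genes. C1QC and C1QA, which encode complement subunits made by macrophages, differed by -0.40 (exact permutation p = 0.177) and -0.30 (exact permutation p = 0.297). CD14, a receptor of monocytes, differed by -0.33 (exact permutation p = 0.266), and S100A8, a protein of neutrophils with signal on 3 arrays, by 1.24 (exact permutation p = 0.238). The mean of the 9 markers with signal on all arrays ran from 5.42 to 6.92 in HP and from 6.05 to 6.58 in LP.

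Of 9 endothelial markers 8 were measured, with a median of -0.08, and 0 were higher and 0 lower by either test at their brightest probe sets. Of 7 dimmer endothelial probe sets 1 passed in limma, beside 5.11% of all probe sets tested. It read TEK, the angiopoietin receptor, at 0.76 with signal on 3 arrays (limma p = 0.0271, adjusted p = 0.960, exact permutation p = 0.0303), and was chosen after its values were seen. A further TEK probe set with signal on 9 arrays differed by -0.25. The dimmer probe sets of the leukocyte, adipocyte and muscle lists gave 0 calls in limma. TIE1, a receptor of vessel cells, differed by 0.17 (exact permutation p = 0.271), and CLDN5, a junction protein of vessels, by -0.20 (exact permutation p = 0.351). KDR, the main VEGF receptor, differed by -0.16 (exact permutation p = 0.548), and ENG, a co-receptor of TGF-β, by 0.14 (exact permutation p = 0.507). The 9 skeletal muscle markers all lay below 0, at -0.27 to -0.20, and none passed. Their mean level differed by -0.24 (exact permutation p = 0.264), beside a spike-in difference of -0.27. A link between these differences was not tested.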
